A study of Mus musculus with 4 samples.

Results

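The genes described are the cytosolic ribosomal protein genes, taken by symbol: Rpl or Rps followed by a number with at most one letter a, l or x, together with Rplp0, Rplp1, Rplp2 and Rpsa. Of 32288 features in the count table, 80 met that rule, 49 of the large subunit and 31 of the small subunit. They gave 48860230 of the 314821890 UMIs (unique molecular identifiers, each standing for 1 captured RNA molecule) of 13362 typed cells, which is 15.5%. The rule itself reads symbols only. The cells came from pancreata of 4 mice of genotype Ptf1aCre-ERTM;ROSAYFP/+ on a CD-1 background, 10 weeks old when injury began. All 4 mice received tamoxifen, which turns on the Cre recombinase expressed from the acinar gene Ptf1a and so marks acinar cells with EYFP, and all 4 then received caerulein, a peptide that causes pancreatitis. They differed in the length of caerulein treatment: 2 mice had 2 weeks and 2 mice had 4 weeks, and no uninjured mouse is analysed here. EYFP-positive cells were sorted, and EYFP UMIs were present in each of the 13362 typed cells. The authors deposited names for 8 cell types and, for 2586 of the cells, 9 subtypes. Those names are used as deposited: Acinar, Acinar.Prolif, Acinar/MucinDuctal, MucinDuctal, Ductal-like, Tuft/EEC.Progenitor, Tuft and EEC (enteroendocrine cells).

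Ribosomal proteins coat the ribosomal RNA of the small and the large subunit, and a ribosome holds about one copy of each, apart from the stalk proteins P1 and P2, which are present as dimers. Their mRNAs are among the most abundant of any cell. Most of them start with a run of pyrimidines, the TOP motif, through which growth signals set their translation. Acinar cells of the pancreas are specialised for protein synthesis: they carry many ribosomes on the endoplasmic reticulum, and most of their mRNA codes for a small set of secreted digestive enzymes. Some ribosomal protein genes have paralogs: Rpl3l is known from heart and skeletal muscle, Rpl10l and Rpl39l from testis, and Rps27l as a target of p53.

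The mouse is the replicate throughout, and cells were summed per mouse and type. Typed cells numbered 2814 to 3974 per mouse, with 60224505 to 90547790 UMIs and medians of 13464 to 20807 UMIs per cell, higher in the 2-week mice. Barcodes found in more than one mouse numbered 23. Markers of 5 deposited types were highest in the type of that name in each mouse, with some signal elsewhere. Summed acinar markers lay at 53862 to 89334 CPM (counts scaled to a common library total) in Acinar and 607 to 4444 CPM in MucinDuctal, Tuft and EEC cells, and tuft markers at 9878 to 11427 CPM in Tuft and at most 120 CPM in Acinar, MucinDuctal and EEC cells. Mucin markers lay at 33627 to 125723 CPM in MucinDuctal cells, and the lowest of these values belonged to 2-week mouse 2. Enteroendocrine markers lay at 34780 to 161329 CPM in EEC cells, but reached 8345 CPM in Ductal-like, 5669 CPM in Acinar/MucinDuctal and 3534 CPM in Tuft cells of single mice. Ductal markers lay at 18928 to 25768 CPM in Ductal-like cells, where mucin markers reached 22360 CPM. Immune markers were at 256 CPM or less in every mouse and type, and stromal and mesothelial markers at 436 CPM or less.

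Among the 80 genes, 77 were detected at over 100 CPM on average over mice and types, around a median of 2159 CPM. In this 3′ assay each molecule is counted once, so levels were not divided by gene length. Rpl41, which codes for a very short basic peptide of the large subunit, was the most abundant at 4951 CPM. Rps24 (4012 CPM), Rpl23 (3720 CPM) and Rpl13 (3645 CPM) were also at the high end. At the low end of the detected genes stood Rpl29 at 360 CPM, Rps27l at 641 CPM, Rpl4 at 674 CPM and Rpl23a at 727 CPM, so that the range from Rpl29 to Rpl41 was 13.7-fold. Tissue-restricted paralogs were at or near 0: Rpl3l had 26 UMIs in all typed cells, and Rpl10l and Rpl39l had none, which allows up to 0.00953 CPM for a count of 0 (3 UMIs of the total, counting error only). Rps27l was the exception among the paralogs, at 641 CPM against 0.0729 CPM for Rpl3l. How reads shared between a ribosomal protein gene and its many processed pseudogenes were counted is not given in the sources used here. RefSeq (GRCm38.p6) lists 7 other features of the table, by symbol or synonym, as pseudogenes of one of the 80 genes. They held 212792 UMIs, 0.436% as many as the 80 genes, almost all in a pair of Rps18 pseudogenes: Gm10260 held 45.1% and Gm11361 6.69% as many UMIs as Rps18, so that values of Rps18 are uncertain. Other such features may not be named as pseudogenes there.

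Order changed between types. In Acinar cells Rpl41 stood at 4354 ± 791 CPM (SD, n = 4 mice), Rplp1 at 3088 ± 518 CPM, Rps24 at 2784 ± 295 CPM and Rpl13 at 2608 ± 308 CPM. In MucinDuctal cells Rpl41 stood at 5094 ± 341 CPM, and Rplp1 (3522 ± 1064 CPM) lay below Rpl23 (4696 ± 1276 CPM) and Rps24 (4631 ± 1570 CPM), though within their spread. In Tuft cells Rpl41 (5523 ± 630 CPM) was again first, ahead of Rps24 (4430 ± 377 CPM), Rpl23 (4306 ± 174 CPM) and Rps29 (4265 ± 462 CPM), which did not differ beyond their spread.

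Ribosomal protein genes took their smallest share of all UMIs in Acinar cells. Per mouse it was 12.1% and 10.9% at 2 weeks, then 9.49% and 10.2% at 4 weeks, on average 10.7% ± 1.10 (SD, n = 4). In the same cells the 34 acinar enzyme genes found in the table (trypsins, elastases, carboxypeptidases, amylases, lipases and others) took 49.8% to 59.5% of UMIs, more in each 4-week mouse than in either 2-week mouse. With enzyme UMIs left out of the total, ribosomal protein genes took 25.7%, 21.7%, 23.2% and 25.2% of what remained, which placed Acinar cells near the top of the order (24.0% ± 1.84) and no longer at the bottom. The rank of Acinar cells thus depended on whether enzymes counted in the total.

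Tuft/EEC.Progenitor cells had the highest mean share on both scales, 21.2%, 27.6%, 23.2% and 24.6% of all UMIs in mice 1 and 2 of each time point (24.2% ± 2.69), although 2-week mouse 1 contributed only 10 of them. EEC cells had the lowest share once enzymes were left out, 13.3%, 16.2%, 13.3% and 14.9% (14.4% ± 1.42). Tuft cells followed at 16.9%, 17.9%, 16.5% and 16.0% (16.8% ± 0.827). Ranges of neighbours in this order overlapped for EEC and Tuft, for Tuft and Ductal-like (19.1% ± 2.05), and for Ductal-like, Acinar/MucinDuctal (20.2% ± 3.01) and MucinDuctal cells (20.6% ± 5.03). Within mice EEC cells were below Tuft cells, and Tuft cells below Ductal-like cells, in 4 of 4 mice. Acinar.Prolif cells (23.7% ± 1.41) were within the spread of Acinar cells.

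**Figure D1:**
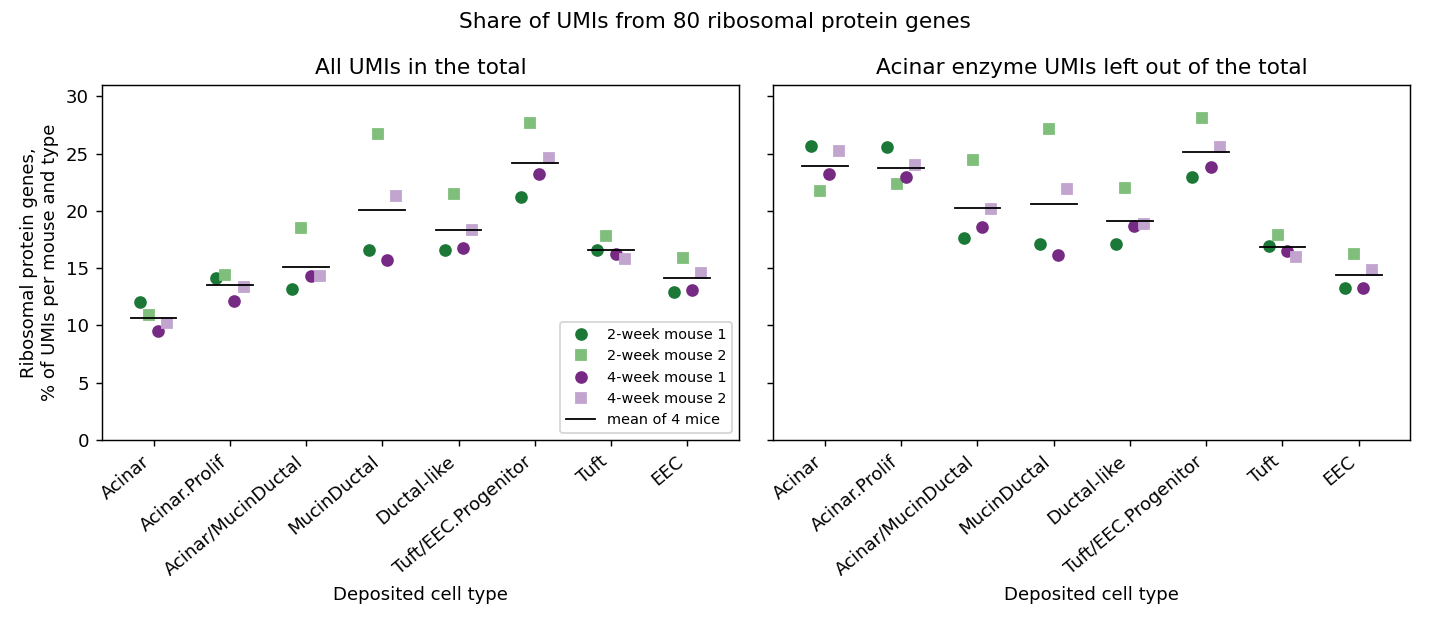
Share of UMIs from the 80 ribosomal protein genes per mouse (points) and mean of 4 mice (bars) in each deposited type, in percent of all UMIs (left) and of UMIs without acinar enzymes (right). Acinar cells average 10.7% on the left and 24.0% on the right, and the other types apart from Acinar.Prolif and Acinar/MucinDuctal move little.

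Within mice, the share of all UMIs was higher than in Acinar cells in 4 of 4 mice for each of the other 7 types, by 0.34 ± 0.08 on the log2 scale (SD, n = 4) in Acinar.Prolif and up to 1.18 ± 0.25 in Tuft/EEC.Progenitor cells. With enzymes out of the total the sign turned in 6 of the 7. The ratio then was -0.74 ± 0.22 in EEC cells and -0.51 ± 0.17 in Tuft cells, lower in 4 of 4 mice in both, and -0.25 ± 0.41 in MucinDuctal, -0.25 ± 0.30 in Acinar/MucinDuctal and -0.33 ± 0.25 in Ductal-like cells, lower in 3 of 4 mice. In these last 3 types the mouse on the other side was 2-week mouse 2. No p is given between types, which the authors defined from these same counts.

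MucinDuctal cells, which make mucins and trefoil factors, varied most between mice. The 2-week mice had 16.6% and 26.7% of all UMIs from ribosomal protein genes, and the 4-week mice 15.7% and 21.3%. The authors numbered 2 clusters within this type, and the share was higher in cluster 1 (21.9%, 28.3%, 24.0% and 27.9%) than in cluster 2 (14.7%, 20.1%, 13.9% and 16.5%) in 4 of 4 mice. Cluster 1 made up 113 of 371 MucinDuctal cells in 2-week mouse 1, 1138 of 1388 in 2-week mouse 2, 228 of 961 in 4-week mouse 1 and 551 of 1263 in 4-week mouse 2, so that the 2 mice with the higher share also had more of their cells in cluster 1. Cluster 1 averaged 25.5% of all UMIs and 26.1% without enzymes, above the Tuft/EEC.Progenitor means on both scales. Within each cluster 2-week mouse 2 was still highest. That mouse also had the highest summed level of 15 immediate early genes in MucinDuctal cells, 5386 CPM against 2628, 2890 and 3748 CPM in the other mice. In Acinar cells its level was the highest too (1976 CPM). Its ribosomal protein share there was 10.9% of all UMIs, within the range of the other mice. Without enzymes in the total it was 21.7%, the lowest of the 4 mice. The part of the immediate early genes in these differences was not tested.

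Acinar/MucinDuctal cells, which carry acinar and mucin markers together, were shallow in 3 of 4 mice. Their median was 3387 UMIs per cell in 2-week mouse 1, 19556 in 2-week mouse 2, 2659 in 4-week mouse 1 and 3555 in 4-week mouse 2. The share of ribosomal protein UMIs in them was 13.2%, 18.5%, 14.3% and 14.3%, highest in the mouse with deep cells. A part of depth in that difference between mice was not tested. The restriction to cells of at least 5000 UMIs was read only for time differences and mean ratios to Acinar cells. Their enzyme share was 23.2% to 28.9%, and 8 to 22 of these cells per mouse formed cluster 15, with medians of 78 to 127 ribosomal protein UMIs per cell.

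Among the subtypes, shares were highest in MucinDuctalProgenitor and Tuft-1 cells and lowest in the cells named for a hormone or peptide. MucinDuctalProgenitor cells had 22.4%, 28.2%, 23.3% and 26.4% of all UMIs from ribosomal protein genes, from 5, 118, 13 and 20 cells. Tuft-1 cells had 23.9%, 23.3%, 22.7% and 25.2%, Tuft-2 cells 16.5%, 16.4%, 17.5% and 16.7%, and Tuft-3 cells 15.0%, 15.0%, 14.9% and 13.5%. The 3 tuft subtypes did not overlap in this measure, although Tuft-1 had only 6 and 12 cells in 2-week mouse 1 and 4-week mouse 1. EEC-Progenitor (Neurog3+) cells, named for the transcription factor that starts the endocrine program, had 19.2%, 21.2%, 19.5% and 20.8%. Every value for the 4 hormone or peptide subtypes lay below these: ECL (Tac1+) at 12.9% to 13.7%, Delta (Sst+) at 11.9% to 13.0%, Ppy+ at 11.9% to 13.1% and Epsilon (Ghrl+) at 10.1% to 13.3%, with overlap among those 4. Hormone transcripts count in the total of these cells: summed enteroendocrine markers were up to 161329 CPM in EEC cells, and their part in the difference was not tested.

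**Figure D2:**
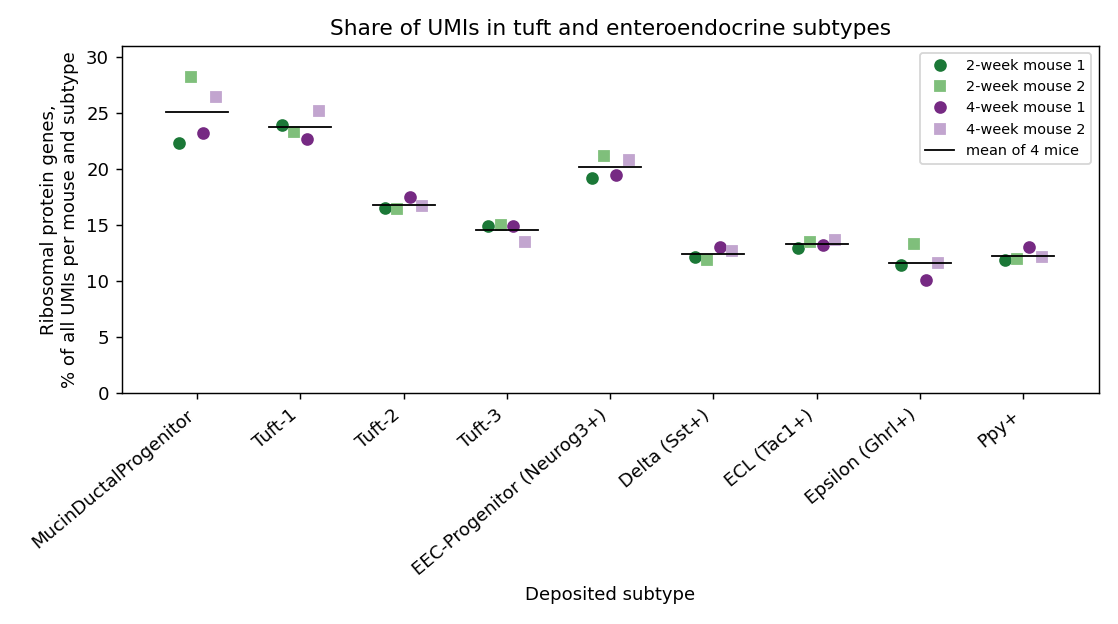
Share of all UMIs from ribosomal protein genes per mouse (points) and mean of 4 mice (bars) in the 9 deposited tuft and enteroendocrine subtypes. MucinDuctalProgenitor and Tuft-1 cells lie above 22%, EEC-Progenitor (Neurog3+) cells near 20.2%, and the 4 hormone or peptide subtypes at 10.1% to 13.7%.

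Single cells of a type and mouse also differed among themselves. In Acinar cells of 2-week mouse 1 the per-cell share without enzymes had a 10th percentile of 16.9%, a median of 25.4% and a 90th percentile of 32.3%. In EEC cells of the same mouse the values were 9.19%, 13.1% and 18.6%, so that the upper EEC cells reached the lower Acinar cells. In number of molecules, a median Acinar cell held 2750 to 3233 ribosomal protein UMIs, a median EEC cell 1607 to 1912 and a median MucinDuctal cell 2398 to 5796. These medians move with the depth of the cells, which was lower in the 4-week mice in MucinDuctal, Tuft and EEC cells.

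The composition of the ribosomal protein UMIs was compared separately, as each gene's share of the summed UMIs of the 80 genes, which does not depend on enzymes. Set against the Acinar cells of each mouse, most of the 77 detected genes kept their part: in Acinar.Prolif cells 75 of 77 lay within 0.25 on the log2 scale, in MucinDuctal 48, in Tuft 44 and in EEC 41. A small group moved by more than 0.5, namely 9 genes in MucinDuctal, 8 in Tuft and 13 in EEC cells. The genes named next are from the 5 highest and 5 lowest ratios in each of these 3 types with one sign in 4 of 4 mice. Rplp0 and Rplp2 are given beside them as stalk genes.

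Rps27 and its paralog Rps27l, both of the small subunit, went opposite ways. Rps27 made up 0.704% and 0.871% of ribosomal protein UMIs in Acinar cells at 2 weeks, then 0.861% and 0.760% at 4 weeks. MucinDuctal cells had 1.49%, 1.41%, 1.94% and 1.47% in the same order of mice, and Tuft cells had 1.75%, 1.70%, 2.24% and 1.87%. Every mouse was higher in both types. The log2 ratio to Acinar cells was 0.97 ± 0.21 in MucinDuctal, 1.24 ± 0.18 in Tuft and 0.67 ± 0.13 in EEC cells (SD, n = 4). Rps27l made up 0.628%, 0.520%, 0.662% and 0.551% in Acinar cells and 0.326%, 0.193%, 0.311% and 0.230% in MucinDuctal cells. Its ratio was -1.18 ± 0.21 in MucinDuctal, -0.46 ± 0.18 in Tuft and -0.64 ± 0.07 in EEC cells, the lowest of all detected members in MucinDuctal cells. Set against each other, there were 1.12, 1.67, 1.30 and 1.38 Rps27 UMIs per Rps27l UMI in Acinar cells and 0.791, 1.14, 0.981 and 0.896 in Acinar.Prolif cells, but 4.55, 7.30, 6.24 and 6.4 in MucinDuctal, 3.90, 4.26, 5.51 and 4.11 in Tuft and 2.80, 3.78, 3.73 and 3.21 in EEC cells. No value of the first 2 types reached the lowest of the others. A further row, Rps27rt, held 1.01% as many UMIs as Rps27, and reads shared between the pair cannot be told apart here.

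**Figure D3:**
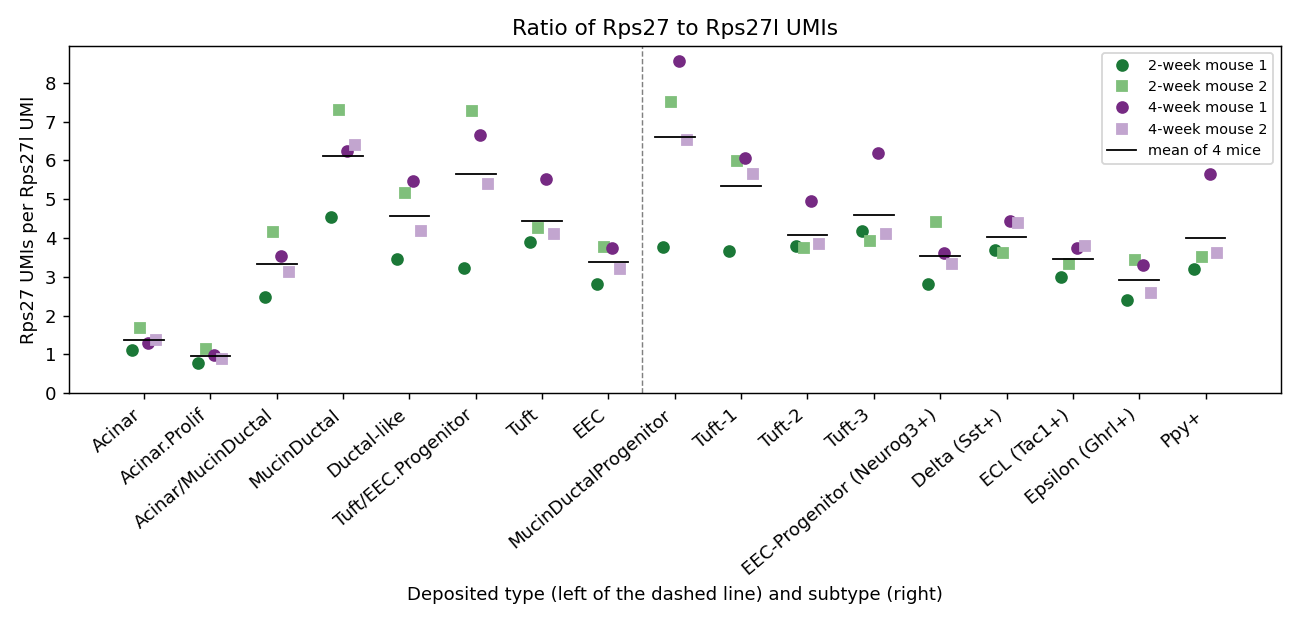
Rps27 UMIs per Rps27l UMI per mouse (points) and mean of 4 mice (bars) in 8 deposited types (left of the dashed line) and 9 subtypes (right). Acinar and Acinar.Prolif cells lie between 0.791 and 1.67, below every value of the other types and subtypes.

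Rps27l is a known p53 target, and 10 other targets of p53 were read beside it. Their summed level without enzymes was 245 to 354 CPM in Acinar, 198 to 281 CPM in MucinDuctal, 788 to 866 CPM in Tuft and 1894 to 2941 CPM in EEC cells. These levels and the part of Rps27l in the ribosomal protein UMIs are different measures, and a part of p53 in either was not tested.

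Among other small subunit genes, Rpsa, which also codes for the laminin receptor precursor, and Rps2 were lowest in Tuft cells. Rpsa made up 1.92%, 1.79%, 1.79% and 1.89% in Acinar and 1.03%, 1.18%, 1.05% and 1.04% in Tuft cells, a log2 ratio of -0.78 ± 0.13. Rps2 had a ratio of -0.78 ± 0.22 in Tuft cells. Both were lower still in the Tuft-3 subtype, with Rpsa at 0.895% ± 0.040 and Rps2 at 0.504% ± 0.071 there. Rps12 was lower in EEC cells (-0.58 ± 0.10). Higher were Rps18 in MucinDuctal (0.62 ± 0.05, uncertain for the pseudogenes named above) and Rps9 (0.55 ± 0.08) and Rps3 (0.58 ± 0.10) in EEC cells.

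Of the large subunit, Rpl18 was higher in all 3 types, with ratios of 0.53 ± 0.09 in MucinDuctal, 0.53 ± 0.05 in Tuft and 0.86 ± 0.12 in EEC cells. Its part of ribosomal protein UMIs was 0.987%, 0.973%, 0.888% and 1.03% in Acinar cells and 1.84%, 1.56%, 1.71% and 1.94% in EEC cells. Every EEC value lay above every Acinar value. Rpl7 (0.77 ± 0.09) and Rpl10 (0.49 ± 0.17) were higher in MucinDuctal, Rpl30 (0.68 ± 0.05), Rpl29 (0.52 ± 0.03) and Rpl19 (0.48 ± 0.06) in Tuft, and Rpl29 (0.60 ± 0.08) in EEC cells. Rpl38 and Rpl41 took smaller parts: Rpl38 with ratios of -0.54 ± 0.11 in MucinDuctal, -0.64 ± 0.07 in Tuft and -0.58 ± 0.12 in EEC cells, and Rpl41 with ratios of -0.64 ± 0.11 in MucinDuctal and -0.53 ± 0.10 in EEC cells. Both also varied between mice within Acinar cells, where Rpl41 made up 4.24%, 3.54%, 5.19% and 3.44%, and their highest values there belonged to 4-week mouse 1.

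All 3 stalk genes took a smaller part in Tuft and EEC cells in 4 of 4 mice, Rplp1 by the most. Rplp1 and Rplp2 code for the flexible stalk proteins that recruit elongation factors, and Rplp0 for the base that anchors them. Rplp1 made up 3.13%, 2.93%, 2.82% and 2.64% in Acinar cells and 1.60%, 1.51%, 1.28% and 1.39% in EEC cells, a log2 ratio of -1.0 ± 0.10. It was lower in Tuft (-0.76 ± 0.09) and MucinDuctal cells (-0.73 ± 0.09) too, in 4 of 4 mice each. Rplp0 made up 1.54% ± 0.085 in Acinar and 1.58% ± 0.026 in MucinDuctal cells, within the spread, and 1.27% ± 0.061 in Tuft and 1.31% ± 0.021 in EEC cells. Rplp2 made up 1.2% ± 0.104 in Acinar, 0.996% ± 0.059 in MucinDuctal, 0.952% ± 0.045 in Tuft and 1.02% ± 0.037 in EEC cells.

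**Figure D4:**
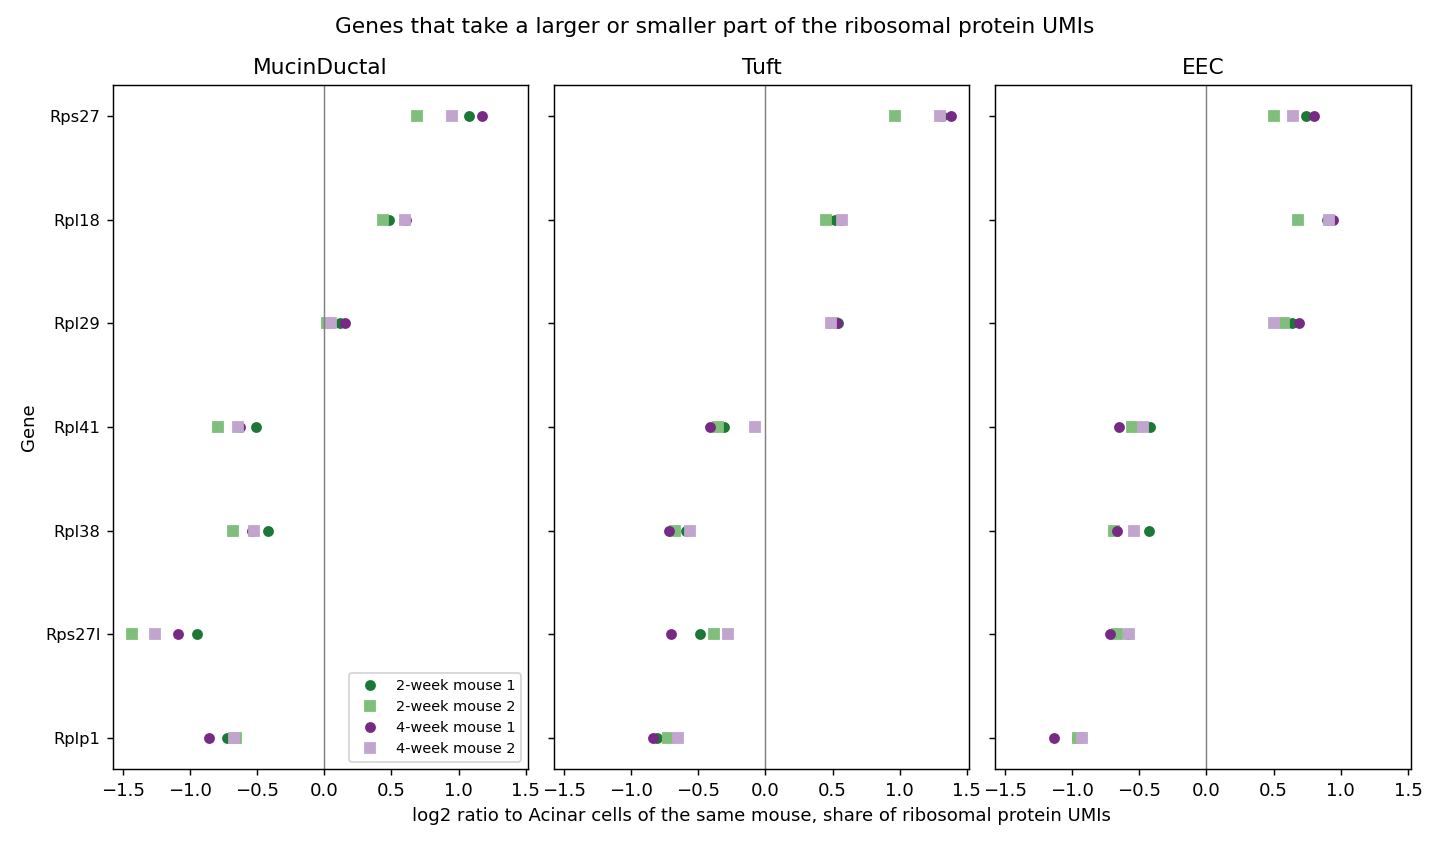
Log2 ratio of each gene's part of the ribosomal protein UMIs to its part in Acinar cells of the same mouse (points, 4 mice) in MucinDuctal, Tuft and EEC cells, for the genes among the 5 highest or 5 lowest in at least 2 of the 3. Rps27 and Rpl18 lie right of 0 and Rplp1, Rps27l, Rpl38 and Rpl41 left of 0 in every mouse and panel.

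Start sites are shown for 5 of these genes, 2 that took a larger part outside Acinar cells (Rps27, Rpl18) and 3 that took a smaller one (Rps27l, Rpl38, Rpl41). Each run covers 30 bases before and 15 bases from the annotated start (RefSeq, GRCm38.p6), read 5′ to 3′ on the gene's strand, with capitals marking each run of C and T of at least 8 bases that lies within 25 bases of the start.
Rps27, chr3:90213634-90213678, minus strand: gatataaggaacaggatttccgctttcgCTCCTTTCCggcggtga
Rpl18, chr7:45718041-45718085, plus strand: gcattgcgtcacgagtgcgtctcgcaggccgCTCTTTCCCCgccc
Rps27l, chr9:66946056-66946100, plus strand: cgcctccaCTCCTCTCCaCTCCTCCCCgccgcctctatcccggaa
Rpl38, chr11:114668550-114668594, plus strand: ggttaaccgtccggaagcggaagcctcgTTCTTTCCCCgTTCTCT
Rpl41, chr10:128549154-128549198, minus strand: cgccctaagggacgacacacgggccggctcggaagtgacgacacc
In Rps27 and Rpl38 a run spans the start, in Rpl18 it begins just after it, in Rps27l both runs end before it, and the Rpl41 window holds none of that length. The second run of Rpl38 goes on past the printed end. Rps27l has a second annotated start, whose longest run was 5 bases. Of the 80 genes, 60 matched RefSeq promoter entries by symbol, 72 entries in all. A C and T run of at least 8 bases lay within 25 bases of the start in 45.8% of these entries and in 19.7% of all 32851 entries. The letters CCGGAAG, searched on both strands over the whole entry of 250 bases before to 50 after the start, were in 36.1% and 8.86%. Read on the other strand these letters are CTTCCGG and can overlap a C and T run. Genes on both sides of the comparison between types held the run, and the matches are a description of the letters only.

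Counting each gene's level without enzymes in the total, the genes were read against all 8534 genes at a mean of at least 10 CPM. In EEC cells 68 of 77 were lower than in Acinar cells in 4 of 4 mice and 0 were higher, where 16.6% of all genes were lower and 68.0% higher. In Tuft cells 61 of 77 were lower and 1 was higher, against 17.8% and 61.8% of all genes. In MucinDuctal cells 10 were lower and 2 higher, against 15.8% and 58.3%, and the other members did not keep one sign in all 4 mice. As the types were defined on these counts and the genes share one total, the counts are given with no test.

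Some genes of the cytosolic ribosome, or paralogs of such genes, fall outside the symbol rule. They included Rps3a1, Fau (a ubiquitin-like protein fused to S30), Rack1 (a scaffold on the small subunit), the paralogs Rpl22l1, Rpl7l1 and Rpl36al, and Rps27rt. Fau, like Rps27, took a larger part in all 3 types, at 1.18% of the summed ribosomal protein UMIs in Acinar and 2.46% in Tuft cells, a log2 ratio of 1.06 ± 0.19. Rps3a1 was highest in EEC cells, with a ratio of 0.89 ± 0.11 there against 0.35 ± 0.05 in MucinDuctal cells. Rack1 moved less (0.23 ± 0.02 in MucinDuctal). Rpl22l1, the paralog of Rpl22, made up 0.486% in Acinar, 0.382% in MucinDuctal, 0.398% in Tuft and 0.444% in EEC cells. Among the types it was lowest in Tuft/EEC.Progenitor (0.289%) and highest in Ductal-like cells (0.566%). Rpl22 UMIs per Rpl22l1 UMI were 1.36 ± 0.126 in Acinar, 2.69 ± 0.517 in Tuft/EEC.Progenitor and 1.38 ± 0.185 in Ductal-like cells. Rpl7l1 had ratios of 0.11 ± 0.35 in MucinDuctal, 0.50 ± 0.24 in Tuft and 0.39 ± 0.20 in EEC cells. Rpl36al had 0.03 ± 0.30, 0.16 ± 0.16 and -0.12 ± 0.12 in the same order, all at or within about the spread between mice, and Rps27rt 0.80 ± 0.23, 1.10 ± 0.27 and 0.31 ± 0.30.

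Over 31 sums per mouse and type with at least 20 cells, which share libraries and a total, 2703 other genes were ranked by how closely their log2 level followed the summed level of the 80 genes. Among the closest 10 by Pearson's r were Gm2000 (0.89), Rack1 (0.88), the elongation factor 1 subunits Eef1g (0.87), Eef1d (0.87) and Eef1b2 (0.82), Dmbt1 (0.81), Rab5if (0.78) and BC004004 (0.77). The median over all 2703 genes was -0.27. Median r was 0.35 for 16 genes of TOP mRNAs other than ribosomal proteins, 0.51 for 15 ribosome biogenesis genes at sufficient level, 0.09 for 15 initiation factors and -0.04 for 52 mitochondrial ribosomal protein genes. Of lists with other functions, 7 proliferation genes had 0.46 and 12 genes of endoplasmic reticulum stress 0.30, between these values. For 12 immediate early genes it was -0.36, below the median of all 2703 genes.

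Summed levels of those lists, without enzymes, ran partly apart from the ribosomal protein genes. The 33 biogenesis genes, which assemble and modify pre-ribosomes in the nucleolus, were highest in Acinar.Prolif cells, 0.39 ± 0.12 on the log2 scale above Acinar cells in 4 of 4 mice, where the ribosomal protein share differed by -0.01 ± 0.05. The 78 mitochondrial ribosomal protein genes were higher in Tuft than in Acinar cells, by 0.34 ± 0.12 in 4 of 4 mice, where the cytosolic genes were lower. On this scale 61.8% of all genes at a mean of at least 10 CPM were higher in Tuft cells in 4 of 4 mice. The 16 other TOP genes were 0.66 ± 0.13 higher in Tuft/EEC.Progenitor cells in 4 of 4 mice and at 0.04 ± 0.16 in Tuft cells.

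Time points were compared within each type. For the share of all UMIs, both 4-week mice lay below both 2-week mice in Acinar (9.85% against 11.5% on average), Acinar.Prolif (12.7% against 14.3%) and Tuft cells (16.0% against 17.2%). Enzymes took on average 51.4% at 2 and 59.3% at 4 weeks in Acinar cells, without overlap. With enzymes left out of the total, Acinar cells averaged 24.2% at 4 against 23.7% at 2 weeks and Acinar.Prolif cells 23.5% against 24.0%, and the groups overlapped in both types. Tuft cells (16.3% against 17.4%) still did not overlap. Of all UMIs, the Tuft difference of -1.16 points was -0.562 without 2-week mouse 2 and -1.76 without 2-week mouse 1. Acinar cells gave -1.65 with all mice and -1.06 without 2-week mouse 1, and Acinar.Prolif cells -1.53 and, without 4-week mouse 1, -0.931. MucinDuctal cells averaged 18.5% at 4 and 21.6% at 2 weeks with overlap, a difference of -3.13 percentage points that became 1.95 without 2-week mouse 2. Acinar/MucinDuctal, Ductal-like and EEC cells also overlapped and turned sign without that mouse, to 1.10, 0.981 and 0.911 points, and EEC cells also without 4-week mouse 1, to 0.194. With 2 against 2 mice the exact two-sided permutation test cannot give a p under 0.333, and the smallest value adjusted over 28 tests was 0.848.

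Subtypes were compared over time too. In Tuft-2 cells both 4-week mice were above both 2-week mice (17.1% against 16.5%), in Tuft-3 cells both were below (14.2% against 15.0%), each with an exact permutation p of 0.333. Each moved by more than 1.5 times without 1 mouse: the Tuft-2 difference of 0.654 points was 0.258 without 4-week mouse 1, and the Tuft-3 difference of -0.767 was -0.0742 without 4-week mouse 2. Enteroendocrine subtypes also differed in sign from the EEC mean, whose difference was -0.566 points: Delta (Sst+) cells (12.9% against 12.0%) and Ppy+ cells (12.6% against 12.0%) were higher in both 4-week mice, with the same exact permutation p. Without 4-week mouse 1 the Ppy+ difference of 0.671 points was 0.204, and without enzymes in the total Ppy+ cells overlapped. The Delta (Sst+) difference was 0.709 to 1.01 points without each mouse in turn. Epsilon (Ghrl+) cells averaged 10.9% against 12.4%, and ECL (Tac1+) cells 13.5% against 13.2%, with overlap in both. Per mouse, Epsilon (Ghrl+) cells had 11.4% and 13.3% at 2 weeks and 10.1% and 11.7% at 4 weeks. ECL (Tac1+) cells had 12.9% and 13.5%, then 13.3% and 13.7%. The size of both differences depended on single mice, while neither turned sign when 1 mouse was left out.

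For single genes, counts summed per mouse and type were fitted with edgeR, and 77 of the 80 genes passed the filter on low counts in each of 7 types. Tuft/EEC.Progenitor cells were too few in 1 mouse to be fitted. No ribosomal protein gene passed an adjusted p of 0.05 in any type. Of all genes 0% were called in Acinar, Acinar/MucinDuctal, MucinDuctal, Ductal-like, Tuft and EEC cells and 0.00995% (1 of 10046) in Acinar.Prolif cells. At an unadjusted p under 0.05 there were 11 members in Tuft (6.73% of all genes), 3 in EEC (4.04%) and 2 in Ductal-like cells (5.27%). There were 0 in Acinar (2.79%), Acinar.Prolif (2.45%), Acinar/MucinDuctal (3.42%) and MucinDuctal cells (5.39%). Of 77 members, the counts in EEC and Ductal-like cells are at or under the share of all genes. DESeq2 called 2 members in Tuft cells, where it called 0.283% of all genes. It called no member in Acinar (0.122% of all genes), Acinar.Prolif (0.0199%), Acinar/MucinDuctal (0.198%), MucinDuctal (0.297%), EEC (0.118%) or Ductal-like cells (0%). The smallest adjusted p of a member was 0.265 by edgeR and 0.0124 by DESeq2, both for Rpl5 in Tuft cells.

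Median log2 changes were small. From 2 to 4 weeks the 77 genes had a median of 0.19 in Acinar cells against -0.03 for all genes tested, 0.01 against 0.01 in Acinar.Prolif, -0.09 against -0.01 in Acinar/MucinDuctal, and -0.11 against -0.01 in MucinDuctal cells. Tuft cells had -0.14, Ductal-like cells -0.08 and EEC cells 0.03, each against -0.01. Of the 77 estimates, 65 were below 0 in Tuft, 66 in MucinDuctal, 67 in Ductal-like and 61 in Acinar/MucinDuctal cells. Fewer were below 0 in Acinar.Prolif (32), EEC (30) and Acinar cells (7). The share of all genes below 0 was not counted, and their medians are those given above. As the genes share one normalization and one library per mouse, the estimates are not independent. The medians of the 77 genes depended on single mice. Without 2-week mouse 1 they were 0.48 in Acinar, 0.18 in Acinar.Prolif, -0.36 in Acinar/MucinDuctal, -0.40 in MucinDuctal, -0.06 in EEC, -0.19 in Tuft and -0.29 in Ductal-like cells. Without 2-week mouse 2 they were -0.003, -0.13, 0.22, 0.26, 0.11, -0.07 and 0.13 in the same order. Leaving out 4-week mouse 1 gave 0.05 in Acinar.Prolif, 0.07 in MucinDuctal and -0.002 in Acinar/MucinDuctal cells, and leaving out 4-week mouse 2 gave -0.06 in Acinar.Prolif, -0.23 in Acinar/MucinDuctal, -0.38 in MucinDuctal, -0.16 in Ductal-like and -0.01 in EEC cells. Only in Tuft cells did the median keep its sign without each mouse in turn.

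**Figure D5:**
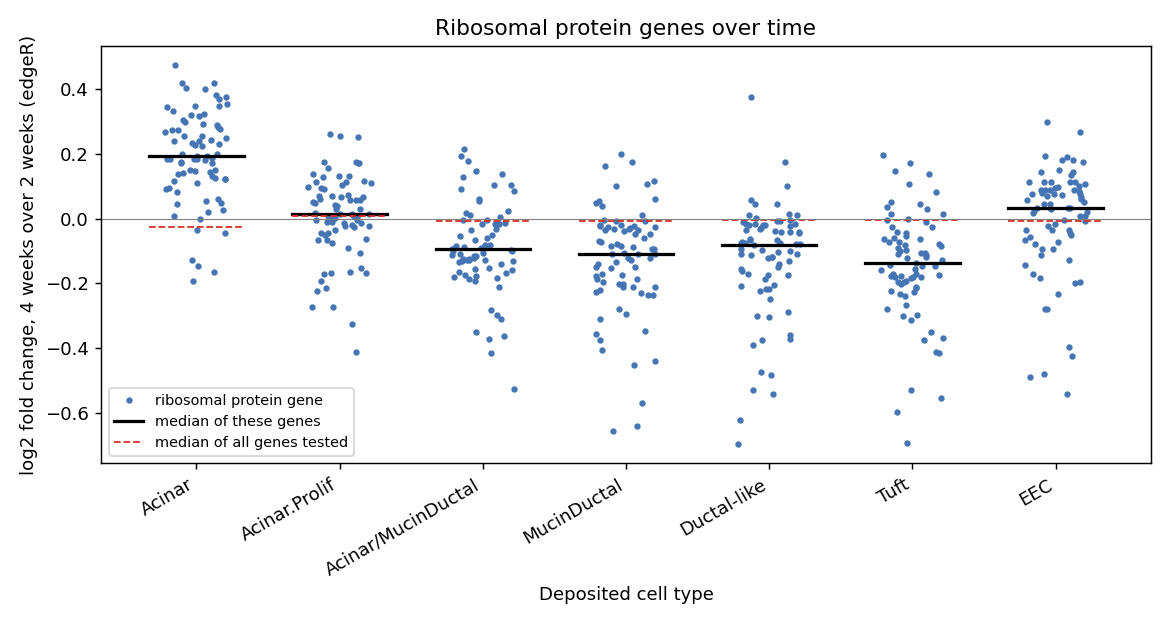
Log2 fold change from 2 to 4 weeks (edgeR) of each of 77 ribosomal protein genes (points) in 7 types, with their median (black) and the median of all genes tested (dashed red). The median is 0.19 in Acinar and -0.14 in Tuft cells, and no point passed the adjusted threshold.

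Groups that did not overlap were also counted. Both 4-week mice lay above both 2-week mice for 10 members in Acinar cells (14.0% of all genes) and for 1 in Acinar.Prolif (14.4%), 2 in Acinar/MucinDuctal (16.0%), 1 in MucinDuctal (18.5%), 7 in EEC (16.8%), 2 in Tuft (17.9%) and 1 in Ductal-like cells (17.5%). Both lay below for 0 members in Acinar (17.2% of all genes), 4 in Acinar.Prolif (15.0%), 2 in Acinar/MucinDuctal (16.5%), 3 in MucinDuctal (18.4%), 9 in EEC (17.2%), 39 in Tuft (17.5%) and 8 in Ductal-like cells (17.8%). With all 4 mice, the count of lower members in Tuft cells was the one above the share of all genes, and the genes share one normalization and one library per mouse, so that they are not independent. Which types stand apart depended on single mice. Without 2-week mouse 1, 76 members were higher in Acinar (38.0% of all genes) and 58 in Acinar.Prolif cells (36.4%), while 69 were lower in Acinar/MucinDuctal (33.5%), 68 in MucinDuctal (39.6%), 37 in EEC (36.9%), 57 in Tuft (33.6%) and 70 in Ductal-like cells (32.7%). Without 2-week mouse 2, 57 were higher in Acinar/MucinDuctal (34.3%), 38 in MucinDuctal (36.5%), 42 in Ductal-like (29.8%) and 48 in EEC cells (34.4%), while 49 were lower in Acinar.Prolif (31.5%), 40 in Tuft (34.2%) and 22 in Acinar cells (32.4%). Without 4-week mouse 1, 38 were higher in Acinar (27.7%) and 50 lower in Tuft cells (33.7%). Without 4-week mouse 2, 58 were lower in Tuft (33.1%) and 40 in MucinDuctal cells (31.9%), and 28 were higher in Acinar cells (28.5%).

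Rpl5, which carries 5S ribosomal RNA into the large subunit and binds Mdm2 when free, had the smallest p in Tuft and EEC cells. In Tuft cells its normalized level was 829 and 1041 CPM at 2 weeks and 561 and 597 CPM at 4 weeks, without overlap. The log2 change was -0.69 with a standard error of 0.15 (adjusted p = 0.265 by edgeR's quasi-likelihood test, 0.0124 by DESeq2). Rpl23a, a protein at the exit of the peptide tunnel, stood at 791 and 909 CPM against 569 and 589 CPM in Tuft cells, also without overlap (-0.55, adjusted p = 0.355 by edgeR, 0.0482 by DESeq2). It was chosen for naming there after its values were seen. In EEC cells Rpl5 stood at 857 and 1191 against 641 and 765 CPM (-0.54, adjusted p = 0.986 by edgeR). Rpl5 and Rpl23a lay lower in both 4-week mice than in either 2-week mouse, in the types given here, but neither passed the edgeR test.

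In the remaining types the member with the smallest p was Rpl23a in MucinDuctal (-0.66, adjusted p = 0.824 by edgeR), Acinar/MucinDuctal (-0.53, adjusted p = 0.999 by edgeR) and Ductal-like cells (-0.70, adjusted p = 0.900 by edgeR), Rpl13a in Acinar.Prolif (-0.41, adjusted p = 1.00 by edgeR) and Rpl35 in Acinar cells (0.42, adjusted p = 0.998 by edgeR). Rpl23a stood at 818 and 1285 CPM at 2 weeks and 567 and 768 CPM at 4 weeks in MucinDuctal cells. Leaving out 2-week mouse 1 brought Rpl5, Rps15 and Rpl23a past the edgeR threshold in EEC, Rpl5 in Tuft and Rpl23a in Ductal-like cells, all lower at 4 weeks. Of all genes these fits called 3.0% in EEC, 2.31% in Tuft and 3.11% in Ductal-like cells, so that 3, 1 and 1 of 77 members are near or under the share of all genes. Each fit sets the 4-week mice against 2-week mouse 2 alone and assumes that this mouse varies like the others.

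The Tuft counts were also taken within subtypes. Tuft-1, Tuft-2 and Tuft-3 cells numbered 6, 33 and 35 in 2-week mouse 1, 166, 269 and 181 in 2-week mouse 2, 12, 56 and 113 in 4-week mouse 1 and 26, 99 and 165 in 4-week mouse 2. In Tuft-2 cells alone 15 members lay lower (15.9% of all genes) and 23 higher (16.2%) without overlap, around a median of 0.05. In Tuft-3 cells alone 50 lay lower (17.7% of all genes) and 0 higher (18.3%), around a median of -0.13. No member was called by edgeR in either subtype, where 0% and 0.114% of all genes were called. At an unadjusted p under 0.05 there were 6 members in Tuft-2 (3.91% of all genes) and 11 in Tuft-3 cells (6.79%).

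Related lists showed no called gene over time in Tuft or EEC cells either. In Tuft cells 7 of 16 other TOP genes, 9 of 33 biogenesis genes and 21 of 78 mitochondrial ribosomal protein genes lay lower at 4 weeks without overlap. Of all genes 17.5% did, and the medians of these lists were -0.13, -0.06 and -0.06. By edgeR none of them was called, and 1, 1 and 3 genes had an unadjusted p under 0.05, against 6.73% of all genes. Of the 8 genes just outside the symbol rule 1 lay lower, around a median of -0.02. Rack1 had the smallest p of these 8 in Tuft cells, at -0.44 (adjusted p = 0.548 by edgeR). Outside Tuft cells, 22 of 33 biogenesis genes lay lower in Acinar/MucinDuctal (16.5% of all genes), 18 in MucinDuctal (18.4%) and 13 in Acinar.Prolif cells (15.0%). There were 10 in EEC (17.2%), 6 in Acinar (17.2%) and 4 in Ductal-like cells (17.8%). Of the 16 other TOP genes, 7 lay lower in Acinar.Prolif and 5 in Acinar cells, and at most 2 in the rest. In Acinar cells 12 of 15 immediate early genes lay lower at 4 weeks without overlap, around a median of -1.49, where 17.2% of all genes lay lower. By edgeR none was called and 8 had an unadjusted p under 0.05, against 2.79% of all genes. In Acinar.Prolif cells 13 of the 15 lay lower (15.0% of all genes), around a median of -1.04. Atf3 was the 1 gene of 10046 called there (-2.39, adjusted p = 0.0141 by edgeR), though not by the fit that is not robust. In Tuft cells 4 lay lower, in Acinar/MucinDuctal 3, in Ductal-like 1, and in MucinDuctal and EEC cells 0. In Acinar cells the 77 ribosomal protein genes had a median of 0.19 and the 78 mitochondrial ones 0.20. Of those 78, 22 lay higher at 4 weeks without overlap, against 14.0% of all genes. Other types had similar counts, with 21 in EEC (16.8% of all genes), 19 in Acinar/MucinDuctal (16.0%) and 17 in MucinDuctal cells (18.5%). Ductal-like cells had 17 (17.5%), Acinar.Prolif cells 15 (14.4%) and Tuft cells fewer, at 7 (17.9%). The part of the immediate early genes in these medians was not tested.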

How the data were processed

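Raw UMI counts per gene and cell were deposited by the authors with no normalization, with cell type, subtype and cluster names and a mouse name in each cell name. The submitters' processing notes name Cell Ranger 4.0.0, Seurat 3.2.3 and mm10. How names were assigned is not given in the sources used here. Cells were used as deposited (smallest 1001 UMIs), and no doublet caller was run. Counts were summed per mouse and type; shares, CPM and within-mouse log2 ratios were computed from the sums, with a pseudocount of 0.5 counts for composition and 1 CPM for likeness. Types with at least 20 cells in each mouse were fitted with edgeR 4.0.16 (quasi-likelihood, robust, TMM, filterByExpr; R 4.3.3) over all genes, with Benjamini-Hochberg adjustment at 0.05 within a type, and DESeq2 1.42.0 as an alternative. The fit was tested on data simulated for Acinar and MucinDuctal cells only, with changes larger than those estimated here for ribosomal protein genes. That run cannot tell how often changes of the size reported here would be found. The 4 libraries come from 4 mice by label, 2 per time point, with replicates numbered in accession order. No batch is named. Named over time is the member with the smallest p, and between types the 5 highest and 5 lowest ratios with one sign in 4 of 4 mice at a mean of at least 10 CPM. Tissue-restricted paralogs, Rps27l, the stalk genes and the genes outside the symbol rule were named in any case. Members and lists were chosen with earlier results of these data known. Values of some genes that met these rules are not reported here.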

Additional observations from a re-analysis of the deposited data

How the results depend on the processing

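The designs hold 2 mice per time point, so small changes cannot be told from the spread between mice, and p-values of the shares cannot pass the threshold. No paired analysis was possible because each of the 4 mice gave 1 time point; types were compared within mice. Without acinar enzyme UMIs in the total, the time difference of the share in Acinar cells turned from lower to 0.517 percentage points, and the log2 ratios of the share to Acinar cells turned to -0.012 in Acinar.Prolif, -0.25 in Acinar/MucinDuctal, -0.25 in MucinDuctal, -0.74 in EEC, -0.51 in Tuft and -0.33 in Ductal-like cells, and moved to 0.067 in Tuft/EEC.Progenitor cells. With the median over cells, the time difference was 0.0573 in EEC-Progenitor (Neurog3+) and -0.0177 in ECL (Tac1+) cells. Leaving out each mouse in turn, it ranged from -4.20 to 1.10 percentage points in Acinar/MucinDuctal, -8.21 to 1.95 in MucinDuctal, -3.95 to 0.981 in Ductal-like, -2.04 to 0.911 in EEC and -1.02 to 0.892 in EEC-Progenitor (Neurog3+) cells, and the sign turned without 2-week mouse 2, and in the last 2 also without 4-week mouse 1. The other 130 of 140 values of that difference kept their sign. Restricting to cells of at least 5000 UMIs, leaving out mitochondrially encoded UMIs, adding genes outside the rule or leaving out the 5 most abundant members turned no sign of a share result. The number of all genes called over time was low and not stable. DESeq2 called 15 in Acinar, 2 in Acinar.Prolif, 23 in Acinar/MucinDuctal, 40 in MucinDuctal, 31 in Tuft and 14 in EEC cells. With no filter on low counts edgeR called 286, 51, 128, 6 and 81 in Acinar, Acinar.Prolif, Acinar/MucinDuctal, MucinDuctal and Ductal-like and 266 and 74 in Tuft and EEC cells. The fit that is not robust called 0 in Acinar.Prolif, cells of at least 5000 UMIs gave 4 in Acinar/MucinDuctal, and Tuft-3 cells alone 11. Leaving out each mouse gave 13 to 129 in Acinar, 5 to 143 in Acinar.Prolif, 0 to 122 in Acinar/MucinDuctal, 0 to 191 in MucinDuctal, 0 to 366 in EEC, 5 to 273 in Tuft and 0 to 230 in Ductal-like cells. Ribosomal protein genes called in Tuft cells were 2 by DESeq2 (Rpl5, Rpl23a), of 31 genes called among 10967, and 4 with no filter (also Rpl12 and Rpl13a), of 266 among 18458, and leaving out each mouse gave 0 to 3 in EEC, 0 to 1 in Tuft and 0 to 1 in Ductal-like cells, the higher counts without 2-week mouse 1. No other alternative called one. Counts of members without overlap, recomputed under alternatives added after the data were seen, moved by more than 1.5 times in Acinar cells (6 higher with no filter, where 12.0% of all genes were, beside 15 by DESeq2, which is at that limit, against 15.6%) and in Tuft cells (1 higher by DESeq2, against 17.8% of all genes, and 1 with no filter, against 14.4%, 15 lower and 23 higher in Tuft-2 cells, against 15.9% and 16.2%, 0 higher in Tuft-3 cells, against 18.3%). Beyond what each alternative leaves out, the cause was not tested.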
